A study of Mus musculus with 12 samples.

Results

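Silencing of lnc-LFAR1, a liver-enriched long noncoding RNA, was compared with a control virus in livers that received oil and no carbon tetrachloride (CCl4), across 18193 genes. The comparison used 6 of the 12 arrays of the study, 3 from the group called NC and 3 from the group called shLFAR1. Both groups were male Balb/c mice aged 8 weeks that were injected with olive oil at 0.3 ml/kg. After 2 weeks of oil a lentivirus was given into the tail vein, and oil followed 3 times per week for 4 further weeks. NC mice received Lenti-NC and shLFAR1 mice received Lenti-shLFAR1, a single hairpin (shLFAR1-3), and the vector of both carries GFP under a promoter that is not restricted to 1 cell type. The other 6 arrays came from mice given the same viruses with 5% CCl4 in the oil (NC+CCl4 and shLFAR1+CCl4), and each group of the study held 10 mice, of which 3 livers were hybridized.

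RNA came from whole liver, so fewer cells of a type and less RNA per cell cannot be told apart. The level of lnc-LFAR1 itself was not analysed here, because the annotation assigns it no probe set, and the depth of the knockdown is therefore not known from these arrays. The mouse genes next to the human counterpart of the locus, Cyp2u1 and Hadh, differed by log2 changes of 0.19 ± 0.35 and -0.02 ± 0.08 (SE). The 6 oil arrays resembled each other, with Spearman's rho between 0.992 and 0.995 across genes, and their medians lay between 4.43 and 4.49 on the log2 scale. NC replicate 3 stood apart from the other NC arrays on the first principal component of the oil arrays, at 15.4 against -18.8 and -14.6, and beyond the shLFAR1 arrays at 5.95, 11.6 and 0.416. This component held 33.9% of the variance.

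Hepatocytes fill most of the liver and make its lipids, plasma proteins and detoxifying enzymes. They build fatty acids and cholesterol when food is plentiful, under transcription factors of the SREBP family, and burn fatty acids during fasting under PPARα. Immediate early genes such as Jun respond within minutes to stress or handling, and many liver genes follow feeding and the time of day. Stellate cells store retinoids in a quiet liver and become the main source of collagen after injury.

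Between shLFAR1 and NC 0 of 18193 genes (0%) passed an adjusted p of 0.05 in limma fitted to all 12 arrays, and the lowest adjusted p was 0.785. Without adjustment, 271 genes were higher in shLFAR1 at p under 0.05 (1.49% of all genes) and 233 were lower (1.28%), which together is 2.77%. When no gene differs, a share of 0.05 is expected to pass this threshold. By fold and p together, above 1.6-fold with an unadjusted p under 0.05 (the array threshold of the methods), 28 genes were higher (0.154%) and 29 lower (0.159%). All changes below are on the log2 scale, with the standard error of that fit, and p is unadjusted unless stated. From the 1st to the 99th percentile of all genes the log2 change ran from -0.40 to 0.38, and 33 genes differed by more than 2-fold. When only the 6 oil arrays were fitted, whose spread was smaller than that of the CCl4 arrays (median SD over genes of 0.131 in NC and 0.106 in shLFAR1, against 0.172 and 0.143), 3 genes passed an adjusted p of 0.05 (0.0165%). Got1 and Tuba4a were higher and Mt1 was lower.

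**Figure D1:**
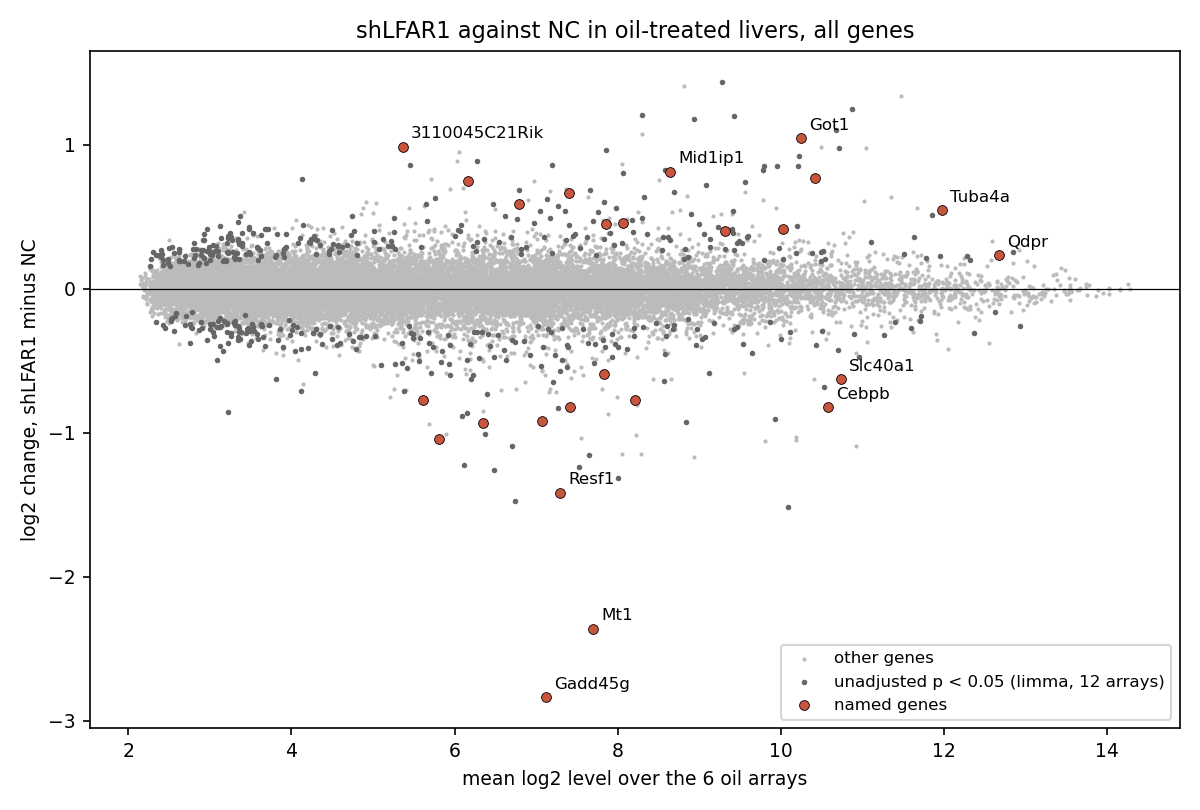
Mean log2 level over the 6 oil arrays (horizontal axis) against the log2 change of shLFAR1 minus NC (vertical axis) for 18193 genes, each dot 1 gene. Most genes lie close to 0, Gadd45g at -2.84 and Mt1 at -2.36 lie lowest, and Got1 lies at 1.05.

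Mt1 encodes metallothionein 1, a small protein that binds zinc and is induced by metals and glucocorticoids. Its log2 levels were 9.35, 8.64 and 8.66 in NC and 6.43, 6.93 and 6.20 in shLFAR1. Every shLFAR1 array was more than 1 log2 unit below every NC array. The change of -2.36 ± 0.44 (5.14-fold lower) had an adjusted p of 0.785 in limma on 12 arrays and 0.00696 on the 6 oil arrays. A dimmer probe set of Mt1 differed by -0.56. Its neighbour and close relative Mt2 lay between 6.02 and 6.70 on all 6 arrays, with a change of -0.25 ± 0.53, and the groups overlapped. Of the 10 measured genes for metals and selenium, which include zinc transporters and selenoproteins, Mt1 was the 1 with p under 0.05 (2.77% of all genes).

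Got1 encodes the cytosolic aspartate aminotransferase, which moves amino groups and reducing equivalents between amino acids and central carbon metabolism. It had log2 levels of 9.56, 9.85 and 9.78 in NC and 10.66, 10.76 and 10.90 in shLFAR1. The groups did not overlap, and the change was 1.05 ± 0.23 (2.06-fold), with an adjusted p of 1.00 in limma on 12 arrays and 0.00696 on the oil arrays. Tuba4a, an α-tubulin of microtubules, read 11.75, 11.72 and 11.62 in NC and 12.21, 12.31 and 12.22 in shLFAR1. Its change of 0.55 ± 0.23 (1.46-fold) had an adjusted p of 1.00 on 12 arrays and 0.00991 on the oil arrays. A second probe set of Tuba4a differed by 0.56, and another, much dimmer one by 0.06. These calls depended on the shLFAR1 arrays. Leaving out shLFAR1 replicate 3 left 0 calls, leaving out shLFAR1 replicate 1 left Got1 alone and leaving out shLFAR1 replicate 2 left Mt1 alone. All 3 genes passed without any 1 NC array, where the same fit called 3 genes without NC replicate 1, 21 without NC replicate 2 and 15 without NC replicate 3.

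The promoters of Mt1 and Got1 are shown because these genes passed the test on the oil arrays. That of Hmgcs1 is shown because it alone held a sterol response element among the 16 measured cholesterol synthesis genes with a window. Each window runs from 250 bases before the RefSeq gene start to 30 bases after it (GRCm38.p6, 280 bases, read 5′ to 3′ on the strand of the gene). Mt1 lies on the plus strand at chr8:94178839-94179118, Got1 on the minus strand at chr19:43524576-43524855 and Hmgcs1 on the plus strand at chr13:119690101-119690380. Capitals mark metal response elements (TGCGCNC or TGCACNC) in Mt1, CCAAT boxes (CCAAT) in Got1, and the sterol response element (TCACNCCAC) with CCAAT boxes in Hmgcs1, all searched on both strands.
Mt1: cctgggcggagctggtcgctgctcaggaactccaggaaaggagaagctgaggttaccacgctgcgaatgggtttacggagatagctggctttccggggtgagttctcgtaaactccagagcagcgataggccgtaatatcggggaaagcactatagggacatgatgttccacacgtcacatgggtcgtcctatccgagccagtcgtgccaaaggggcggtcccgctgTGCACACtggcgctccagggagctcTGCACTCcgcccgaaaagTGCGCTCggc
Got1: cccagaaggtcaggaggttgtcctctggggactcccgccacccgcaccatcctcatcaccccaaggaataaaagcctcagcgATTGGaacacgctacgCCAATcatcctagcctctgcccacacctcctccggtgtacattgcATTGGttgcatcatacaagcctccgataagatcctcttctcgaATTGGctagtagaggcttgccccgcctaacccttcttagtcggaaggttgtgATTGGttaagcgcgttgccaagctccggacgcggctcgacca
Hmgcs1: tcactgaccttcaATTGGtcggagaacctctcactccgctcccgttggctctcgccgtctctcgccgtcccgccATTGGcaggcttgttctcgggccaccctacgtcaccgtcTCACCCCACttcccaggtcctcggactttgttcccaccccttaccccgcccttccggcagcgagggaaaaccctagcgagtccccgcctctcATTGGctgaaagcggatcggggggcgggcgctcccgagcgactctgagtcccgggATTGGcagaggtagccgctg
The Mt1 window held 3 metal response elements, a motif found in 24.1% of the 32851 windows of this length. Got1 held 5 CCAAT boxes and Hmgcs1 held 4, and no match overlapped another. A CCAAT box was found in 36.1% of all windows and in 15 of the 20 windows of measured cholesterol synthesis genes (75%). These 20 windows belonged to 16 genes, because some genes had several and some had none, and 15 of the 16 genes held the box. The sterol response element was found in 1.18% of all windows, in 1 of those 20 windows and in 1 of 29 windows (3.45%) of 20 fatty acid synthesis genes. These matches describe the letters only.

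Besides Mt1, the genes that lay lower in shLFAR1 with no overlap and the smallest p were led by Gadd45g, a growth arrest gene induced by stress. Gadd45g read 9.39, 7.81 and 8.42 in NC and 4.86, 5.91 and 6.35 in shLFAR1, a change of -2.84 ± 0.52 and the farthest from 0 among all genes named here. The other 10 of the 12 were Ifrd1 (-0.92), a transcriptional co-regulator, Slc40a1 (-0.63), the iron exporter ferroportin, Klf2 (-0.77), a transcription factor of endothelium, Pfkfb3 (-1.05), which makes an activator of glycolysis, Taok3 (-0.77), a protein kinase, Resf1 (-1.42), a silencer of retroelements, Cebpb (-0.82), a transcription factor of the acute phase, Snhg1 (-0.82), a noncoding host of small nucleolar RNAs, 2410006H16Rik (-0.59) and Rab30 (-0.93), a small GTPase. None of these 10 passed adjustment in limma on 12 or on 6 arrays. Klf2 and Pfkfb3 exceeded the level of the median gene in NC only. For Resf1 NC replicate 1 was highest, at 8.84 against 7.68 and 7.50, and the shLFAR1 arrays read 6.73, 6.14 and 6.91. All 4 probe sets of Resf1 lay lower, by -1.29 to -1.55. Both probe sets of Cebpb lay lower too (-0.82 and -0.88), as did both of Slc40a1 (-0.63 and -0.66) and all 5 of Snhg1 (-0.56 to -0.82). Of the 4 probe sets of Taok3 the 3 brighter ones lay lower and the dimmest differed by 0.07. The dimmer probe sets of Pfkfb3 and Rab30 changed less, by -0.30 and -0.53.

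Among the genes that lay higher, the 12 with the smallest p and no overlap were led by 3110045C21Rik, with 4.69, 5.02 and 4.91 in NC against 5.94, 5.93 and 5.71 in shLFAR1. Its change was 0.99 ± 0.19, and only its shLFAR1 mean exceeded the median gene (5.55 in NC and 5.54 in shLFAR1). Next came Got1, described above, and Anks4b (0.46), a scaffold protein with ankyrin repeats. Qdpr, which regenerates the cofactor of aromatic amino acid hydroxylases, had the smallest change of the 12, at 0.23 ± 0.06, but its arrays were tight, at 12.53, 12.59 and 12.54 in NC and 12.77, 12.78 and 12.81 in shLFAR1. Both probe sets of Qdpr gave 0.23. Sec24d (0.40) encodes a coat protein of vesicles that leave the endoplasmic reticulum, Nuak2 (0.66) a kinase related to AMPK, Slc39a10 (0.75) a zinc importer and Kynu (0.41) the tryptophan-degrading kynureninase. The dimmer probe sets of Slc39a10 and Kynu changed less, by 0.22 and 0.16. Insc (0.45) and Chst13 (0.59), a chondroitin sulfotransferase, completed the list with Mid1ip1 (0.82) and Insig1 (0.77), which belong to lipid synthesis.

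**Figure D2:**
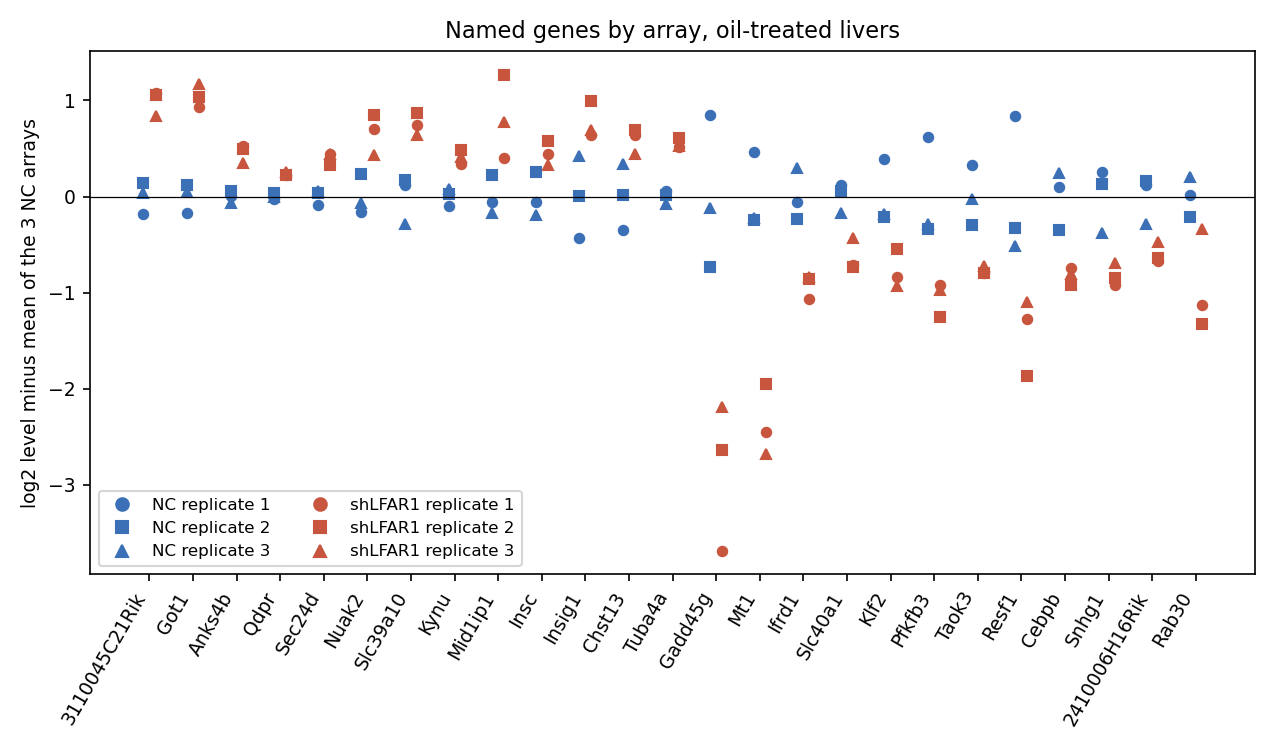
Log2 level of each gene minus its mean over the 3 NC arrays, for the 12 genes named as higher, Tuba4a and the 12 named as lower, with 1 marker per array. NC and shLFAR1 arrays do not overlap for any of these genes by the rule that chose them for all but Tuba4a, and Gadd45g shows the widest spread within a group.

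Cholesterol synthesis genes lay higher in shLFAR1 on average, but the arrays of the groups mingled. Of 24 genes listed, 20 were measured, 19 lay above 0, 15 were higher at p under 0.05 (background 1.49%) and 0 were lower. The median change was 0.73, against 0.00 over all genes. None passed an adjusted p of 0.05. Only 4 of the 20 had all shLFAR1 arrays above all NC arrays (6.01% of all genes did), namely Pmvk, Hsd17b7, Ebp and Stard4. The mean of the list relative to NC was -0.40, 0.09 and 0.30 on the 3 NC arrays and 0.56, 1.26 and 0.18 on the 3 shLFAR1 arrays, so that NC replicate 3 lay above shLFAR1 replicate 3. Without NC replicate 1, or without shLFAR1 replicate 2, the number of members at p under 0.05 was 0 in both cases, with medians of 0.53 and 0.37, and without both arrays the median was 0.18.

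The pattern ran through the pathway. Sqle, the squalene epoxidase, read 6.69, 7.87 and 8.51 in NC and 8.81, 9.95 and 7.93 in shLFAR1, a change of 1.21 ± 0.52. Fdps, which makes farnesyl pyrophosphate, read 9.29, 10.31 and 10.77 in NC and 11.03, 12.13 and 10.54 in shLFAR1, a change of 1.11 ± 0.44. In both genes NC replicate 1 was lowest and shLFAR1 replicate 2 highest, with the other 4 arrays mixed. Hmgcs1, which condenses acetyl units early in the pathway, differed by 0.56 ± 0.32, the regulators Srebf2 and Scap by 0.13 ± 0.11 and -0.06 ± 0.14, and the late enzyme Ebp by 0.24 ± 0.10 with no overlap. Sc5d, the member with the highest level, differed by 0.51 ± 0.22.

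Fatty acid synthesis genes lay higher with less mingling of the groups. All 25 listed genes were measured, with a median of 0.26, and 20 lay above 0. At p under 0.05, 6 were higher and 0 lower (backgrounds 1.49% and 1.28%). In 13 of the 25 all shLFAR1 arrays lay above all NC arrays, and in 1 (Insig2, by -0.09) below, against 6.01% and 4.76% of all genes. The mean of the list was -0.14, 0.06 and 0.08 on the NC arrays and 0.36, 0.58 and 0.38 on the shLFAR1 arrays, without overlap. On the 6 oil arrays alone 16 members were higher at p under 0.05 (background 3.3%), and none passed adjustment. With NC replicate 1 left out of the 12 arrays 2 members were higher, with shLFAR1 replicate 2 left out 3, and with both left out 1.

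Fasn, the fatty acid synthase, read 7.93, 8.57 and 8.54 in NC and 9.21, 10.20 and 9.16 in shLFAR1, a change of 1.18 ± 0.40. Thrsp, the lipogenic spot 14 protein, read 10.71, 10.44 and 11.24 in NC and 12.36, 12.19 and 11.86 in shLFAR1. Its change of 1.34 ± 0.73 had an adjusted p of 1.00 in limma on 12 arrays and 0.0757 on the oil arrays. Acly, which supplies cytosolic acetyl-CoA, differed by 0.86 ± 0.37, Acss2, which activates acetate, by 0.83 ± 0.26, and the desaturase Scd1 by 1.25 ± 0.52. For Scd1 the lowest array was NC replicate 1, at 9.15 against 10.86 and 10.73, and the groups overlapped by a small margin. The regulator Srebf1 read 9.47, 9.25 and 9.55 in NC and 9.89, 9.94 and 9.76 in shLFAR1, a change of 0.44 ± 0.28. Mlxipl, the carbohydrate response factor, differed by 0.00 ± 0.27, and Dgat1 and Dgat2, which close triglyceride synthesis, by -0.12 and -0.05. Elovl5, the member with the highest level, differed by 0.20 ± 0.09 with no overlap.

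**Figure D3:**
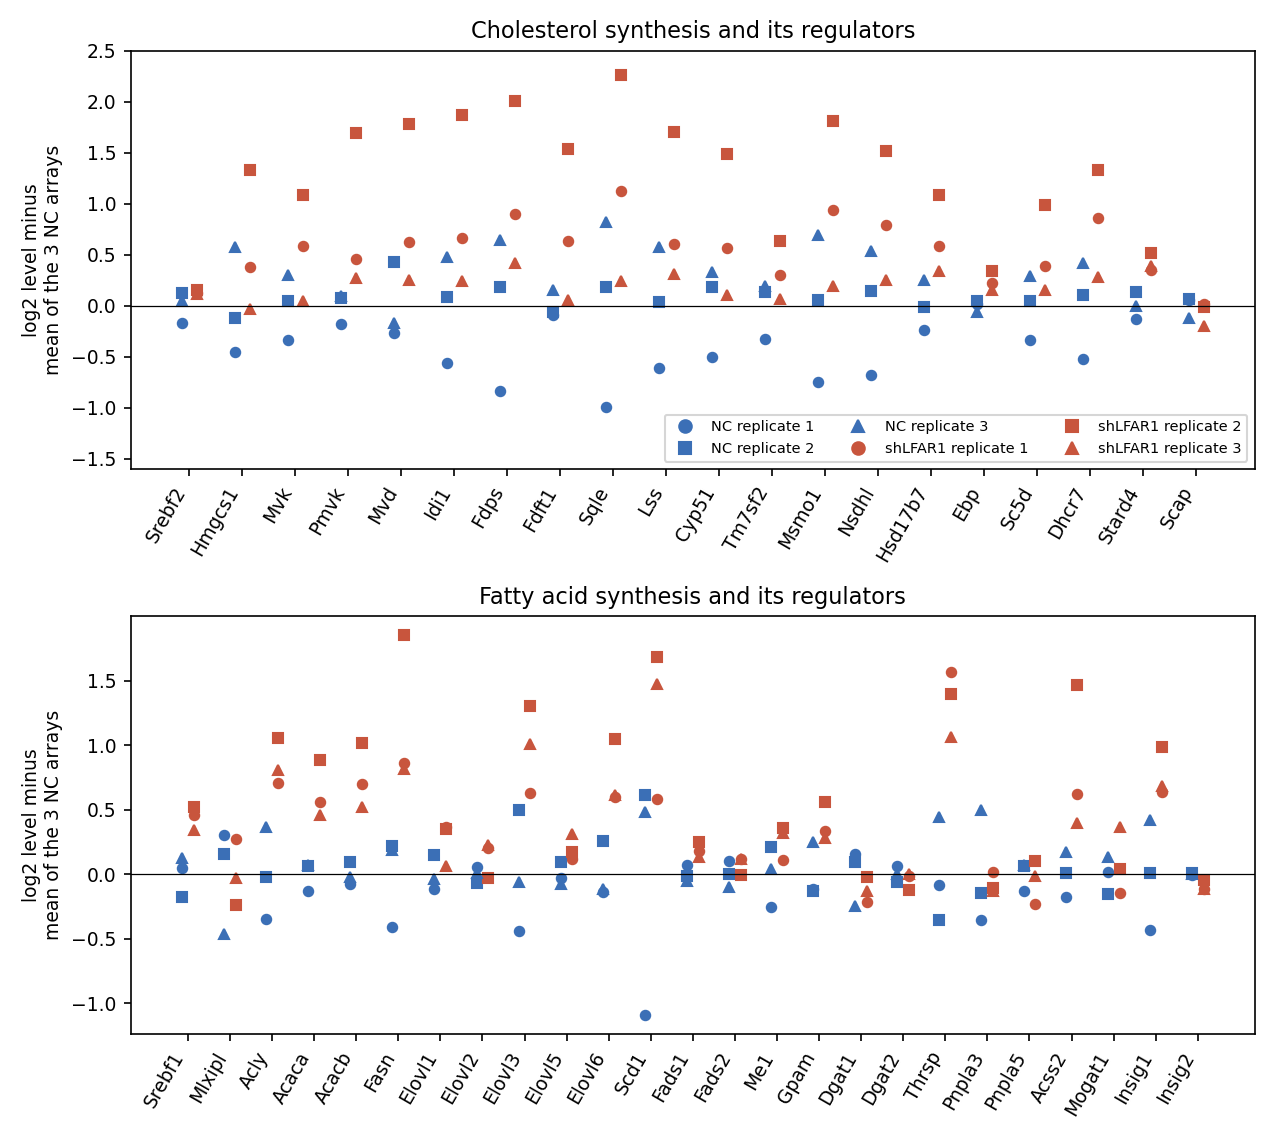
Log2 level minus the mean of the 3 NC arrays for 20 cholesterol synthesis genes (top) and 25 fatty acid synthesis genes (bottom), with 1 marker per array. In the top panel shLFAR1 replicate 2 is highest and NC replicate 1 lowest for most genes while the other arrays mix, and in the bottom panel 13 genes have all shLFAR1 arrays above all NC arrays.

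Genes of fatty acid oxidation and other PPARα targets leaned the other way. Of 30 measured, 26 lay below 0, 4 were lower at p under 0.05 (background 1.28%) and 0 higher, with a median of -0.13. Vnn1, a pantetheinase and PPARα target, read 7.35, 6.28 and 6.55 in NC and 5.31, 5.17 and 6.01 in shLFAR1, a change of -1.23 ± 0.32. Slc25a20, the carnitine carrier of mitochondria, differed by -0.39 ± 0.11 and Hadhb, a subunit of the trifunctional protein, by -0.23 ± 0.10, both with no overlap. Fgf21, a fasting hormone, read 7.48, 9.11 and 5.85 in NC and 6.12, 5.87 and 6.02 in shLFAR1, so that its change of -1.47 ± 0.67 rested on NC replicates 1 and 2. On the oil arrays alone 8 members were lower (background 2.86%). On 12 arrays the count was 2 when NC replicate 1, shLFAR1 replicate 1 or shLFAR1 replicate 2 was left out, and 0 without NC replicate 1 and shLFAR1 replicate 2 together.

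Enzymes of the urea cycle and of amino acid breakdown lay slightly higher. Of 27 measured, 24 lay above 0 and 3 were higher at p under 0.05 (background 1.49%), with a median of 0.12, and 11 had all shLFAR1 arrays above all NC arrays (background 6.01%). Slc25a15, the mitochondrial ornithine carrier, read 11.37, 11.37 and 11.62 in NC and 11.81, 11.82 and 11.80 in shLFAR1, a change of 0.36 ± 0.11. Hgd, of tyrosine breakdown, differed by 0.23 ± 0.07, and Got1 was the other member. Except for Got1 no member exceeded a change of 0.36, and Bhmt, the member with the highest level, differed by 0.07 ± 0.09.

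Immediate early and stress genes were mixed. Of 31 measured, 5 were lower at p under 0.05, namely Gadd45g, Ifrd1, Klf2, Dusp1 and Jun (background 1.28%). Gadd45a and Fosb were the 2 higher members (background 1.49%), and the median of the list was -0.11. Dusp1, a phosphatase that switches off MAP kinases, read 10.78, 11.21 and 10.55 in NC and 8.36, 9.52 and 10.10 in shLFAR1, a change of -1.52 ± 0.52. Jun read 8.40, 9.42 and 8.17 in NC and 6.54, 7.72 and 7.78 in shLFAR1, a change of -1.32 ± 0.53. Gadd45a, a relative of Gadd45g, lay on the other side, with 4.82, 5.25 and 4.99 in NC and 5.71, 6.11 and 5.83 in shLFAR1, a change of 0.86 ± 0.29. All these groups were separate except those of Fosb, but the members were picked by their p. In the whole list of 31, 8 lay lower and 1 higher without overlap (4.76% and 6.01% of all genes). The mean of the list was -0.20, 0.12 and 0.07 in NC and -0.61, -0.24 and -0.15 in shLFAR1.

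In the feedback list of IL-6 and STAT3, 3 of 20 measured members were lower at p under 0.05 (background 1.28%), with a median of -0.12, namely Cebpb, Cebpd and Cish. Cebpd read 6.88, 5.84 and 7.02 in NC and 5.42, 5.76 and 5.98 in shLFAR1, and Cish, a target of growth hormone and cytokines, 8.45, 7.33 and 5.57 in NC and 5.81, 5.72 and 6.04 in shLFAR1. Both overlapped, Cish by NC replicate 3. The receptors and the kinases of this pathway, Il6ra, Il6st, Jak1 and Jak2, differed by -0.23, -0.09, 0.08 and 0.05. Among 26 acute-phase genes, Mt1 was the 1 with p under 0.05 (2.77% of all genes). The abundant fibrinogen chain Fgb differed by -0.08 ± 0.10.

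Iron genes gave 1 member on each side at p under 0.05 among 19 (backgrounds 1.49% higher and 1.28% lower), and a median of -0.01. Ferroportin (Slc40a1) was lower, with 11.17, 11.11 and 10.88 in NC and 10.34, 10.32 and 10.62 in shLFAR1. The transferrin receptor Tfrc was higher, with 8.06, 7.98 and 7.97 in NC and 8.51, 8.72 and 8.70 in shLFAR1, a change of 0.64 ± 0.22. In both genes the groups did not overlap. In the whole list 3 genes were higher and 4 lower without overlap (backgrounds 6.01% and 4.76%). Hamp, the iron hormone hepcidin, differed by 0.27 ± 0.13, and Alas1, the first enzyme of heme synthesis, by -1.09 ± 0.69 with a range of 10.7 to 12.3 in NC.

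Clock genes were measured because liver RNA depends on the hour of collection. Of 17 core genes 1 was higher at p under 0.05 (background 1.49%). This was Nr1d1, with 6.26, 6.67 and 6.41 in NC and 7.17, 7.13 and 7.12 in shLFAR1 (0.69 ± 0.28). The output gene Dbp read 8.97, 6.94 and 8.42 in NC and 10.27, 8.95 and 9.34 in shLFAR1, a change of 1.41 ± 0.81, with overlap. The medians of the core and output lists were 0.04 and 0.00, but changes of opposite sign cancel in a median. The 19 output genes ran from -1.09 to 1.41, with 1 higher and 0 lower at p under 0.05 (backgrounds 1.49% and 1.28%). On the oil arrays alone 3 of them were higher and 4 lower (backgrounds 3.3% and 2.86%). The part of feeding or of the hour of collection in the lipid and stress genes was not tested.

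Profibrogenic genes of interest in this model (12 measured, chosen from the paper) had no member at p under 0.05 on 12 arrays, and their median was -0.03. Col1a1 read 4.43, 4.48 and 4.81 in NC and 4.78, 5.36 and 4.56 in shLFAR1, a change of 0.33 with a 95% interval of -0.91 to 1.57. For Acta2, the smooth muscle actin of activated stellate cells, the change was -0.04 (interval -0.61 to 0.53), for Col3a1 -0.03 (-0.93 to 0.87) and for Tgfb1 -0.04 (-0.40 to 0.33). These intervals come from the fit of 12 arrays, whose spread includes that of the CCl4 livers. Their SE was 0.57 for Col1a1, 0.26 for Acta2, 0.41 for Col3a1 and 0.17 for Tgfb1. On the oil arrays alone it was 0.20, 0.15, 0.25 and 0.12 in the same order. In both fits these values leave room for changes of either sign. Col1a1 and Tgfb1 lay below the level of the median gene in both groups. Ccn2, a matricellular target of TGFβ and YAP, was the 1 member whose groups did not overlap, with 6.85, 6.71 and 7.20 in NC and 5.59, 6.58 and 6.48 in shLFAR1, a change of -0.70 ± 0.51. Of all genes 10.8% had groups that did not overlap in either direction, so 1 of 12 lies near that share. In limma on the oil arrays alone Ccn2 had a p of 0.0142.

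Among Notch and Smad genes, Smad2 differed by -0.01 ± 0.12, Smad3 by -0.21 ± 0.14, Notch2 by -0.04 ± 0.16, Notch3 by 0.15 ± 0.12, Hes1 by 0.37 ± 0.29, Hey2 by -0.15 ± 0.08 and the ligand Jag1 by -0.46 ± 0.22. None of these had p under 0.05 on 12 arrays. Jag1 did on the oil arrays alone, with NC replicate 1 highest at 6.06 and, at 5.38 and 5.39, a slight overlap of the groups. Among targets of other pathways, Myc differed by -0.60 ± 0.32, with 6.37, 5.16 and 5.24 in NC and 4.95, 4.99 and 5.03 in shLFAR1. Its groups did not overlap, with NC replicate 1 again highest, and it too had p under 0.05 on the oil arrays alone. The others, Ccnd1, Ankrd1, Ptch1 and Gli1, differed by 0.24, -0.02, -0.09 and 0.00. Of these 12 pathway genes 2 were lower and 0 higher at p under 0.05 on the oil arrays (2.86% and 3.3% of all genes). Without overlap 1 was lower and 0 higher (4.76% and 6.01% of all genes). Of the inflammatory and apoptotic genes, Tnf, Il1b, Ccl2 and Bad differed by 0.12, -0.13, 0.06 and -0.09. Notch3, Hey2, Ankrd1, Gli1, Tnf, Il1b and Ccl2 lay below the level of the median gene in both groups. The dimmest, Hey2, Ankrd1 and Gli1, had NC means of 2.66, 3.26 and 3.30. Such probe sets may hold background only, so their small changes do not show unchanged expression. In the wider TGFβ/Smad list 1 of 38 genes, Inhba, was lower at p under 0.05 (-0.52 ± 0.24), against 1.28% of all genes.

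Besides the cell type lists there were 39, including those of genes from the study and of the locus neighbours. In 18 of these 39, again including those, no member reached p under 0.05 on 12 arrays. Among these were extracellular matrix (39 measured, median -0.07), matrix turnover (26, -0.01), stellate and contractile genes (19, 0.04), Notch (22, 0.04), interferon-stimulated genes (33, 0.00), nucleic acid sensing and RNA interference (28, -0.03), chemokines and cytokines (27, 0.06), antigen presentation (16, -0.03) and cell cycle (41, 0.03). In the interferon list Irf1 read higher on all shLFAR1 arrays (0.45 ± 0.29) and Iigp1 lower on all (-0.37 ± 0.36). Cytochrome P450 genes had 2 lower members and 0 higher at p under 0.05 among 45 (backgrounds 1.28% and 1.49%), with a median of 0.03.

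**Figure D4:**
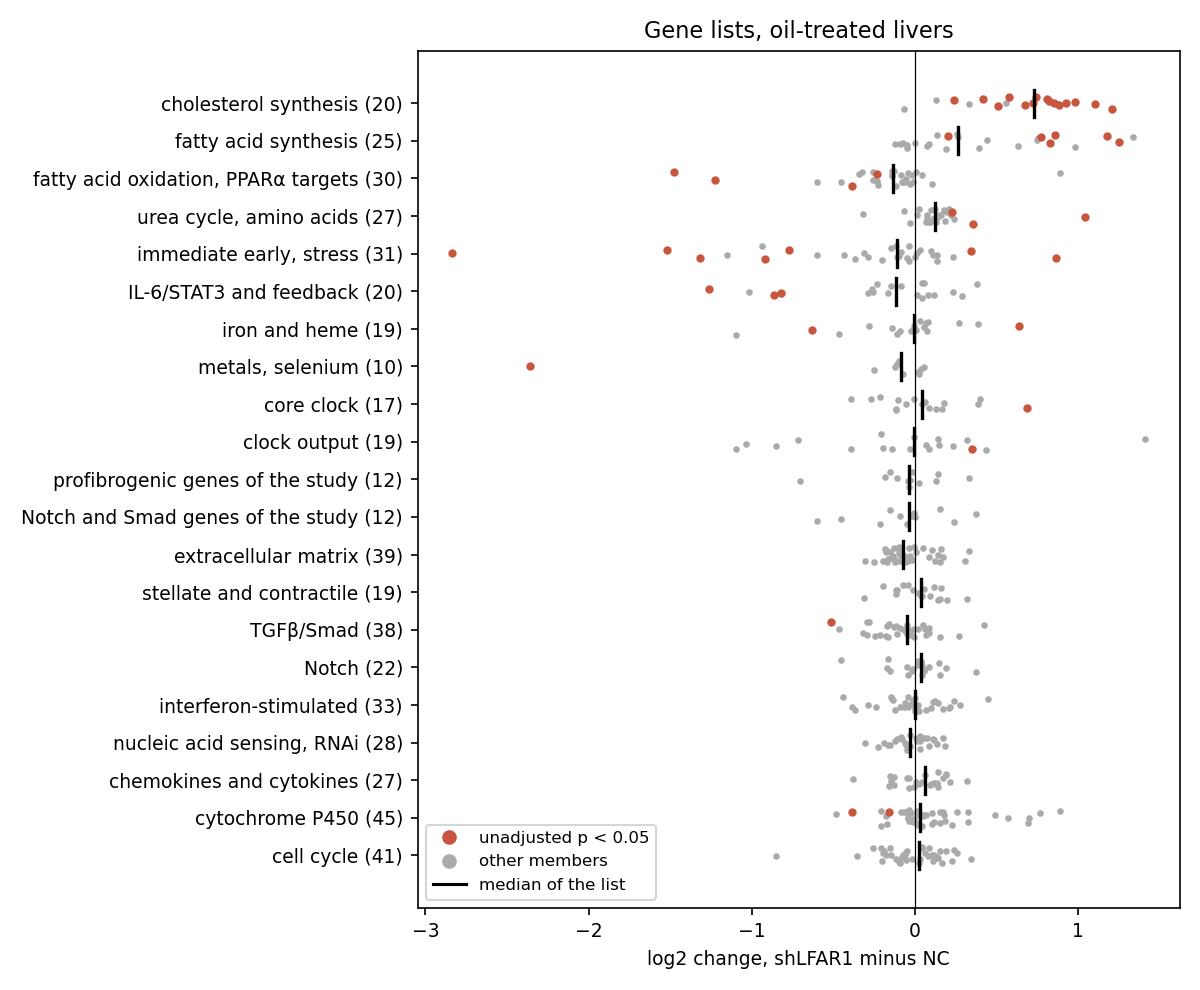
Log2 change of shLFAR1 minus NC for the members of 21 gene lists, with the number measured in brackets, each dot 1 gene and each black bar the median of a list. Cholesterol synthesis stands to the right with a median of 0.73 and fatty acid synthesis with 0.26, and the lists of matrix, stellate and interferon genes are centred near 0.

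Marker genes of the cells of the liver were checked beside these results. The sum of 7 hepatocyte markers lay between 16.37 and 16.44 on the log2 scale in NC and between 16.39 and 16.43 in shLFAR1. For 6 markers of activated stellate cells the ranges were 9.15 to 9.51 and 8.94 to 9.81, for 8 of Kupffer cells and macrophages 10.40 to 10.77 and 10.50 to 10.62, and for 7 of sinusoidal endothelium 10.54 to 10.75 and 10.53 to 10.66. These sums were taken on the linear scale, so the brightest markers weigh most. Hepatocyte markers averaged up to 14.28, near the highest value of the oil arrays (14.52), where changes may be compressed. Of the 6 activated stellate markers 3 exceeded the median level of all genes. Of 60 markers in 13 cell type lists, 0 had p under 0.05 (2.77% of all genes), and the medians lay between -0.13 and 0.06. Markers of adipocytes, exocrine pancreas and skeletal muscle lay below the median level of all genes.

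The same virus comparison in CCl4-treated livers uses other arrays, and its values stand side by side with these. Mt1 differed by -2.36 ± 0.44 in oil and by 1.20 ± 0.44 in CCl4, Slc39a10 by 0.75 ± 0.21 and -0.73 ± 0.21, and Taok3 by -0.77 ± 0.17 and 0.52 ± 0.17. Got1 differed by 1.05 in oil and 0.50 ± 0.23 in CCl4, Qdpr by 0.23 and 0.28, and Klf2 by -0.77 and -0.47, which is the same sign in both settings. Gadd45g differed by 0.32 ± 0.52 in CCl4, and Chac1, a glutathione-degrading enzyme of the ATF4 response, by -1.01 ± 0.27 in oil and 1.46 ± 0.27 in CCl4. None of the 24 genes named above by p and lack of overlap had a difference between both settings at an adjusted p under 0.05 in limma, the lowest being 0.114 for Mt1. Chac1, which is not among the 24, did not pass either, with an adjusted p of 0.0716 in limma. In CCl4 the median of cholesterol synthesis genes was 0.14 and that of fatty acid synthesis genes -0.27, with 5 members lower and 1 higher at p under 0.05 (backgrounds 7.74% and 6.44%). Fasn differed by 1.18 ± 0.40 in oil and -0.90 ± 0.40 in CCl4, a difference with an adjusted p of 0.318 in limma. Over all genes 4 (0.022%) differed between the settings at an adjusted p under 0.05.

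**Figure D5:**
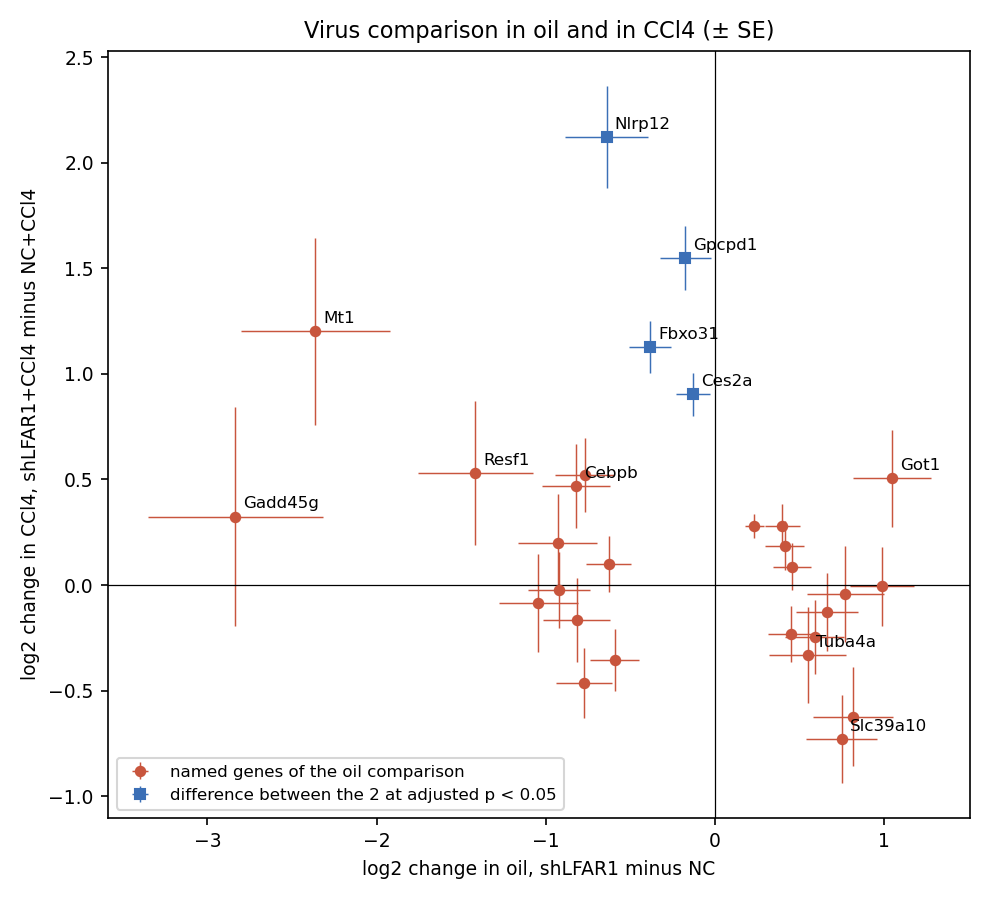
Log2 change of shLFAR1 minus NC in oil (horizontal axis) against that of shLFAR1+CCl4 minus NC+CCl4 (vertical axis), with standard errors, for 25 named genes of the oil comparison (circles) and 4 genes whose changes differed at an adjusted p under 0.05 (squares). Mt1 lies at -2.36 in oil and 1.20 in CCl4, and Got1 above 0 on both axes.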

How the data were processed

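Liver RNA of 12 mice was measured on Affymetrix whole-genome mouse arrays. The authors deposited log2 values, already summarized and normalized by a method not given in the sources used here, without detection calls. Dim probe sets may hold background only, which shrinks their folds. Groups came from the labels. Of 45101 probe sets, 34945 had 1 gene symbol in the platform annotation, 932 had several, 9160 had none and 64 were controls. Each of 18193 genes was represented by its brightest probe set (mean of 12 arrays). A model with 4 groups was fitted to the 12 arrays with limma 3.58.1 in R 4.3.3 (lmFit, eBayes with trend, 8 residual degrees of freedom), two-sided, with Benjamini-Hochberg adjustment over all genes, and was tested on simulated data. Named genes were up to 12 a direction, with separate groups and a mean above the median of all genes in the higher group, called genes first and then those of smallest p, the genes the study measured, and from each list the called members, the most abundant and the largest change. Tuba4a and list members beyond these, such as Fdps, Dusp1 and Tfrc, were named after their values were seen. Members and lists were chosen with earlier results of these data known. The number of arrays limits the precision. Promoter sequences are from RefSeq.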

Additional observations from a re-analysis of the deposited data

Results flagged for a closer look

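In 4 genes the virus comparison differed between oil and CCl4 at an adjusted p under 0.05 for the interaction in limma on 12 arrays. Nlrp12, of the NLR family, read 8.79, 8.92 and 8.95 in NC and 8.26, 8.17 and 8.30 in shLFAR1, but 5.63, 5.45 and 5.57 in NC+CCl4 and 8.09, 8.03 and 6.88 in shLFAR1+CCl4. Its changes were -0.64 ± 0.24 in oil and 2.12 ± 0.24 in CCl4, an interaction of 2.76 (adjusted p = 0.0174). Fbxo31, which serves a ubiquitin ligase, differed by -0.38 ± 0.12 in oil, where the groups did not overlap, and by 1.13 ± 0.12 in CCl4, an interaction of 1.51 (adjusted p = 0.0174). Gpcpd1, a phosphodiesterase of choline metabolism, differed by -0.17 ± 0.15 and 1.55 ± 0.15, an interaction of 1.72 (adjusted p = 0.0174), and Ces2a, a carboxylesterase, by -0.13 ± 0.10 and 0.90 ± 0.10, an interaction of 1.03 (adjusted p = 0.0392). In Gpcpd1 and Ces2a the oil arrays of both viruses overlapped. In all 4 genes the 3 shLFAR1+CCl4 arrays lay above the 3 NC+CCl4 arrays.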

How the results depend on the processing

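With 3 arrays a group, the count of called genes stayed at 0 in limma under other settings for variance, weights, scaling, filter and probe sets, with the methods' t-test and with any oil array left out (0 to 0). It was 3 with the 6 oil arrays and 6 with a replicate block on these, of which 2 and 4 were list members, and in the fit of 12 arrays list members called with an array left out numbered 0 to 0. Without each oil array the fit of the 6 called 0 to 21 genes. Genes past the study's threshold numbered 57, but 102 with array weights, 87 with the replicate block on the oil arrays, 31 with the methods' t-test and 21 to 101 with arrays left out. Cholesterol synthesis members higher at p under 0.05 numbered 15, but 5 with robust eBayes, 2 with the methods' t-test and 0 to 18 with arrays left out. For fatty acid synthesis the count was 6, but 16 with the oil arrays and 16 with the replicate block on these. It was 13 with array weights, 10 with the methods' t-test and 1 to 5 with arrays left out. Over all genes, those higher at p under 0.05 numbered 271, but 600 with the oil arrays. This background also rose with the replicate block on the oil arrays, with array weights and with the methods' t-test. It changed little with robust eBayes and moved both ways with arrays left out. The list counts of each setting therefore stand against different backgrounds. Leaving out NC replicate 1 with shLFAR1 replicate 2, leaving out arrays in the fit of 6 and list counts on 6 arrays were chosen after seeing the data. Arrays of the same number correlated at 0.04, -0.05 and -0.14 in their deviations, and arrays of different numbers at -0.13 to 0.14. With 3 arrays a group these values cannot tell whether the numbers mark a pairing. In the fit of 12 arrays the replicate block gave 0, 55 and 4 calls against 0, 53 and 4 for the oil, the CCl4 and the interaction comparison. None of the 24 genes named by p changed sign under any alternative. They were chosen for groups that do not overlap, so leaving out arrays could not change their sign, and this is no test of them. Of 115 named genes, list members near 0 among them, 37 changed sign.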

Other observations

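Among the 9160 probe sets without a gene symbol, tested apart, 0 passed an adjusted p of 0.05 in limma on 12 arrays, and 321 (3.5%) had an unadjusted p under 0.05. Chac1 and Foxa1 had 1 group far tighter than the other. Chac1 read 7.40, 7.10 and 6.14 in NC and 5.87, 5.80 and 5.95 in shLFAR1, and Foxa1, a hepatocyte transcription factor, had an SD of 0.97 in NC and 0.04 in shLFAR1 around means of 8.63 and 7.83. Gclc, the catalytic subunit of glutathione synthesis, lay lower on all shLFAR1 arrays (11.67, 11.81 and 11.76 against 11.03, 11.21 and 11.35, -0.55 ± 0.26, adjusted p of 1.00 in limma on 12 arrays and 0.0953 on 6), while the 20 measured genes of the Nrf2 response had a median of -0.01. Bcl6, a repressor with higher levels in male liver, read 7.74, 7.01 and 8.55 in NC and 8.57, 8.77 and 9.18 in shLFAR1 (1.07 ± 0.75), and 19 male-biased genes had a median of -0.02.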
